A study of Mus musculus with 4 samples.

Results

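Prostaglandins and leukotrienes are short-range lipid signals made from arachidonic acid, and the genes of their synthesis were followed here in the kidneys of diabetic and nondiabetic mice with and without removal of 1 kidney. The 10 genes were chosen by name: the phospholipase gene Pla2g4a, the cyclooxygenase genes Ptgs1 and Ptgs2, the prostaglandin synthase genes Ptges, Ptgds and Ptgis, the breakdown enzyme gene Hpgd, and the leukotriene genes Alox5, Alox5ap and Ltc4s. The annotation used here named 14 probe sets for 9 of them, of 18193 genes and 45101 probe sets in all, and Ptgs1 was not analysed here. Of the 9 genes, 5 had 1 probe set, 3 had 2 and 1 had 3.

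The 4 groups were of female FVB/NJ mice, and RNA from frozen pieces of perfused kidney, pooled from 4 mice in each group, was measured on 1 array a group. They were OVE26 transgenic mice with uninephrectomy (diabetic uninephrectomy), OVE26 transgenic mice with sham surgery (diabetic sham), control littermates with uninephrectomy (nondiabetic uninephrectomy) and control littermates with sham surgery (nondiabetic sham). OVE26 mice carry a calmodulin transgene driven in pancreatic beta cells by an insulin promoter and become diabetic early in life. Surgery was at 2 months and kidneys were taken at 4.5 months of age, 10 weeks later, so all mice had been operated on. Pools of 4 mice on single arrays hold no measure of the spread between animals, and a difference between 2 arrays has no replicate check.

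In both pathways a phospholipase, mainly the cytosolic enzyme encoded by Pla2g4a, frees arachidonic acid from membranes. The cyclooxygenases turn it into prostaglandin H2, from which separate synthases make prostaglandin E2 (Ptges), D2 (Ptgds) and I2, or prostacyclin (Ptgis), and 15-hydroxyprostaglandin dehydrogenase (Hpgd) inactivates them. In the other branch 5-lipoxygenase (Alox5), with the membrane protein FLAP (Alox5ap) that presents its substrate, makes leukotriene A4, and leukotriene C4 synthase (Ltc4s) joins it to glutathione. In kidney, prostaglandins act on renal blood flow, renin release and the handling of salt and water, and the 5-lipoxygenase enzymes are known mainly from myeloid cells.

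Values are array intensities as deposited, and differences are on the log2(intensity + 26.4) scale, which makes the fold change of a dim probe set smaller than the ratio of its intensities. A gene was tested when its brightest probe set had a mean log2 value of at least 7.06, the median of all probe sets. This left 11197 genes and 8 of the 9 measured members, with Ptgs2 just below the limit at 7.03. For diabetes and for uninephrectomy, limma tested the mean of the 2 differences (1 in each level of the other factor), with Benjamini-Hochberg adjustment over all 11197 genes and 0.05 as the threshold. With 1 array a group there is no spread between like pools. The error of this test is the disagreement between the 2 differences, moderated over genes, and comes mostly from other genes of like intensity. A gene's own disagreement weighs little in its SE, with 1 residual degree of freedom against 59.5 from the other genes. A small SE thus does not mean that the 2 differences of that gene were alike.

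In limma, 1 of the 8 members, Ptgds, rose with diabetes and 0 fell, where 1.48% of all genes rose and 0.75% fell. At an unadjusted p below 0.05, 2 members were higher with diabetes (Ptgds and Pla2g4a) and 0 lower, against 5.43% and 4.1% of all genes. With uninephrectomy 0 members rose and 0 fell, against 0.339% and 0.179% of all genes. At an unadjusted p below 0.05, 1 member (Ltc4s) was higher with uninephrectomy and 0 lower, against 3.19% and 2.48%. The median log2 difference of the 8 members with diabetes was 0.19 in uninephrectomised and 0.30 in sham mice, against medians over all genes of -0.01 and 0.01. With uninephrectomy it was 0.25 in diabetic and -0.28 in nondiabetic mice, against -0.02 and 0.00 over all genes.

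**Figure D1:**
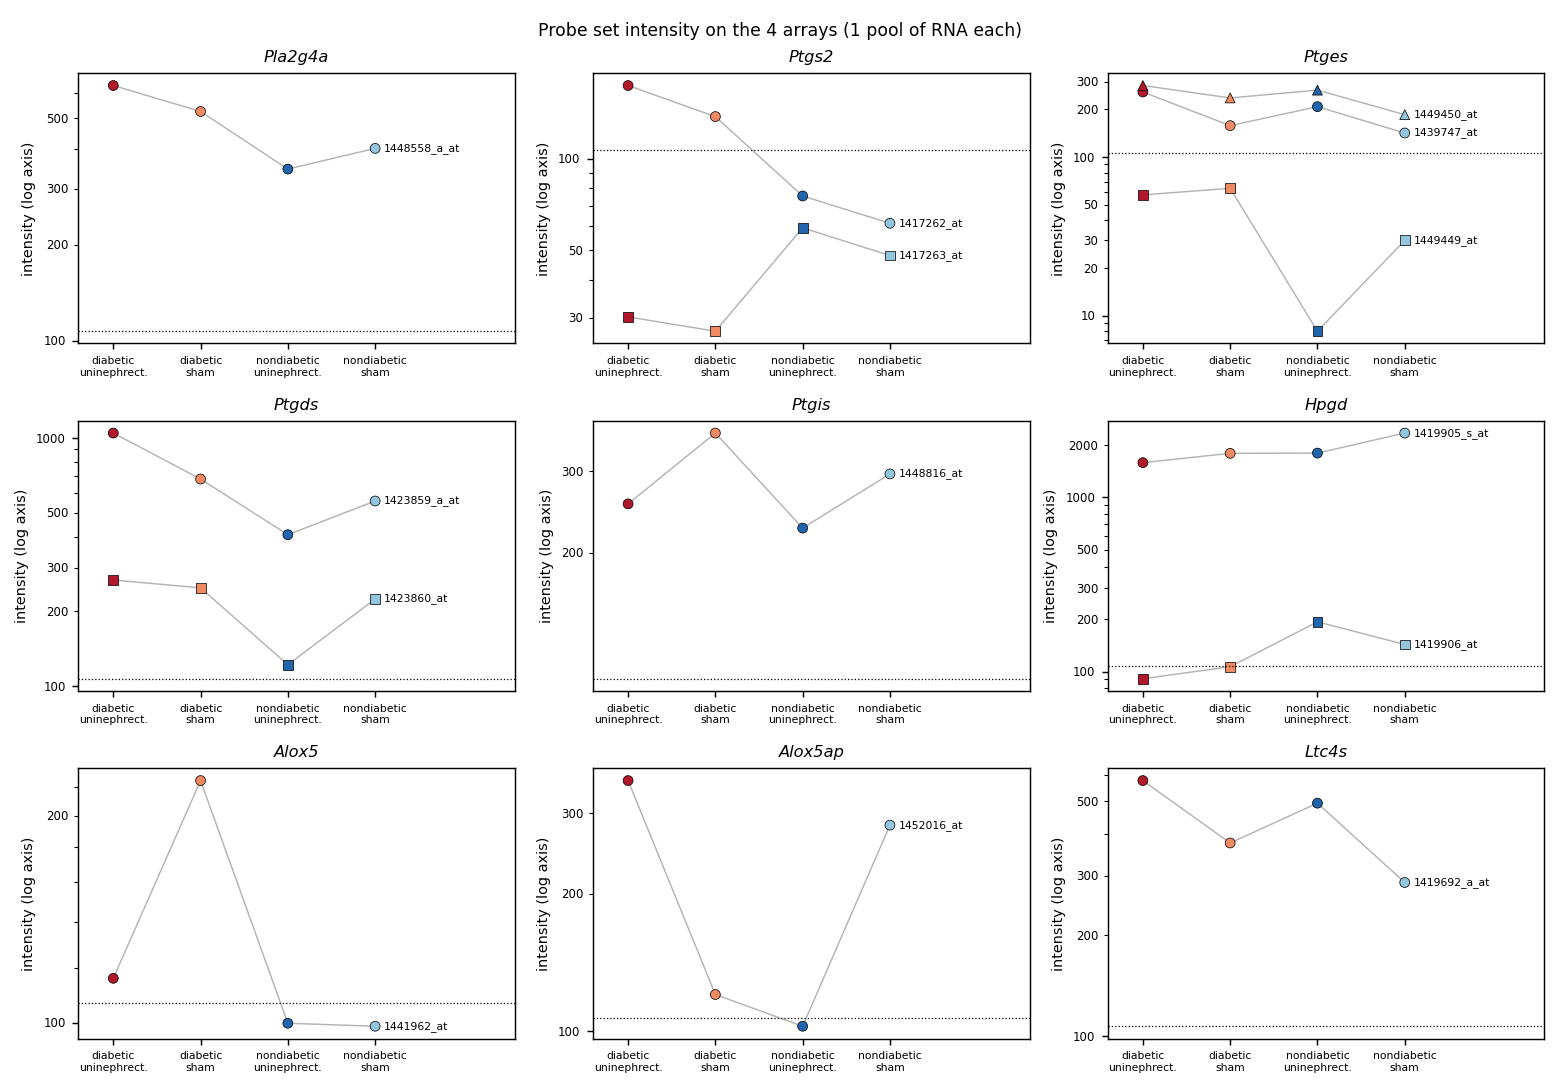
Intensity (log axis) of each of the 14 probe sets on the 4 arrays, 1 panel a gene, 1 point an array of RNA pooled from 4 mice, with lines joining the points of a probe set. The dotted line is the intensity that equals the limit of 7.06 on the log2 scale. Both probe sets of Ptgds are highest on the diabetic uninephrectomy array, the probe sets of Ptgs2 go opposite ways, and Alox5ap is high on the diabetic uninephrectomy and nondiabetic sham arrays.

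Pla2g4a (chr1:149829618-149961290, GRCm38.p6), which encodes the cytosolic phospholipase A2 that starts both branches, was brighter on both diabetic arrays than on either nondiabetic array. Such an order was found in 19.1% of all genes tested. Its intensity was 634.0 in diabetic uninephrectomy and 525.4 in diabetic sham mice, against 346.2 in nondiabetic uninephrectomy and 402.2 in nondiabetic sham mice. The log2 difference with diabetes was 0.83 in uninephrectomised and 0.36 in sham mice. The mean of 0.60 ± 0.22 (limma SE) did not pass after adjustment over all genes (limma adjusted p = 0.209). Uninephrectomy gave 0.26 in diabetic and -0.20 in nondiabetic mice, a mean near 0 (0.03 ± 0.22).

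Ptgs2 (chr1:150100031-150108234), the inducible cyclooxygenase, gave no single answer, because its 2 probe sets went opposite ways. Probe set 1417262_at read 174.4 in diabetic uninephrectomy and 137.8 in diabetic sham mice, against 75.5 in nondiabetic uninephrectomy and 61.4 in nondiabetic sham mice. These intensities were 2.31-fold higher with diabetes in uninephrectomised and 2.24-fold higher in sham mice, or 0.98 and 0.90 on the log2 scale used here. Probe set 1417263_at read 30.2 in diabetic uninephrectomy and 27.1 in diabetic sham mice, against 59.3 in nondiabetic uninephrectomy and 48.1 in nondiabetic sham mice. On that probe set the diabetic arrays were the lower ones, with log2 differences of -0.60 in uninephrectomised and -0.48 in sham mice. Both probe sets lay below the limit for testing, the first narrowly, with a mean log2 value of 7.03 against 7.06. The second was dimmer, with a mean of 6.05. Its readings on the diabetic uninephrectomy and diabetic sham arrays lay near the 20th percentile of those arrays, 23.3 and 29.8. When all 34945 probe sets with 1 gene name were fitted without a limit, limma gave adjusted p = 0.812 for the first and 0.951 for the second. With uninephrectomy the log2 differences of the 2 probe sets lay between 0.08 and 0.29.

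Ptges (chr2:30889471-30931020), the inducible microsomal prostaglandin E synthase, was brighter on both uninephrectomy arrays than on both sham arrays by its 2 brighter probe sets. Probe set 1449450_at read 283.3 in diabetic uninephrectomy against 236.6 in diabetic sham mice, and 265.0 in nondiabetic uninephrectomy against 185.5 in nondiabetic sham mice. Probe set 1439747_at read 257.9 in diabetic uninephrectomy against 158.2 in diabetic sham mice, and 208.4 in nondiabetic uninephrectomy against 142.2 in nondiabetic sham mice. On both probe sets each uninephrectomy array lay above each sham array, with log2 differences between 0.24 and 0.62, an order that 13.6% of all genes tested had. The mean difference with uninephrectomy of 1449450_at, which represents the gene, was 0.35 ± 0.28 and did not pass (limma adjusted p = 0.9997). The third probe set, 1449449_at, was dim and had another pattern, at 57.9 in diabetic uninephrectomy and 63.7 in diabetic sham mice, against 8.0 in nondiabetic uninephrectomy and 29.9 in nondiabetic sham mice.

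Ptgds (chr2:25466709-25470110), which encodes the lipocalin-type prostaglandin D synthase, was the member that rose with diabetes. Probe set 1423859_a_at read 1047.6 in diabetic uninephrectomy and 683.7 in diabetic sham mice, against 407.7 in nondiabetic uninephrectomy and 557.5 in nondiabetic sham mice. The arrays of the 2 diabetes states did not overlap, although 19.1% of all genes tested had both diabetic arrays above both nondiabetic ones and 18.6% had them below. The log2 difference was 1.31 in uninephrectomised and 0.28 in sham mice, with a mean of 0.79 ± 0.21 (limma SE, adjusted p = 0.0214), so most of it came from the uninephrectomised arrays. Probe set 1423860_at had the same order of arrays, with 267.7 in diabetic uninephrectomy and 248.9 in diabetic sham mice, against 121.9 in nondiabetic uninephrectomy and 224.5 in nondiabetic sham mice. Its log2 differences were 0.99 and 0.13, with limma adjusted p = 0.714 among 19342 probe sets tested singly.

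The call for Ptgds was lost in 5 of 9 alternative settings, where limma's adjusted p lay between 0.202 and 0.504, while its mean difference stayed between 0.68 and 0.83 in all 9. Other measures moved with it. All 6 markers of fibroblasts and smooth muscle were higher with diabetes in both arms, with summed intensities of 13673 in diabetic uninephrectomy and 9904 in diabetic sham mice, against 7577 in nondiabetic uninephrectomy and 7656 in nondiabetic sham mice. Control probe sets for 18S ribosomal RNA stood at 1.88 times (diabetic uninephrectomy), 1.32 times (diabetic sham) and 1.02 times (nondiabetic uninephrectomy) their level in nondiabetic sham mice. The 6 markers of collecting duct principal cells summed to 10516 in diabetic uninephrectomy against 7368 in nondiabetic uninephrectomy mice, with 4 of 6 higher, and were level in sham mice, at 9410 in diabetic and 9417 in nondiabetic sham mice, with 3 of 6 higher. The part of these in the result was not tested. In RNA from pieces of kidney, more cells of a type and more RNA per cell cannot be told apart.

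Ptgis (chr2:167203194-167252150), the prostacyclin synthase gene of vascular cells, was lower on both uninephrectomy arrays than on both sham arrays. Its intensity was 255.1 in diabetic uninephrectomy against 362.6 in diabetic sham mice, and 226.2 in nondiabetic uninephrectomy against 296.0 in nondiabetic sham mice. The mean log2 difference of -0.41 ± 0.26 with uninephrectomy did not pass (limma adjusted p = 0.9997), and 15.4% of all genes tested had both uninephrectomy arrays below both sham arrays. The sum of the 4 measured markers of adipocytes had the same order of arrays and a wider range. It was 3206 in diabetic uninephrectomy against 16062 in diabetic sham mice, and 1319 in nondiabetic uninephrectomy against 8340 in nondiabetic sham mice. Most of each sum was Car3, which had this order singly, as did Adipoq and Cidec. Lep did not, and Cidec and Lep were below the limit for testing. The sum of the 4 measured markers of the medulla also had the order of Ptgis. It was 27610 in diabetic uninephrectomy against 34645 in diabetic sham mice, and 25378 in nondiabetic uninephrectomy against 31882 in nondiabetic sham mice. Slc14a2, Aqp1 and Slc5a3 were lower on both uninephrectomy arrays than on both sham arrays, but in other orders of the 4 arrays. Cryab was not, at 6971.0 in diabetic uninephrectomy against 6727.4 in nondiabetic sham mice. The 5 endothelial markers summed to 3391 against 3938 in diabetic and to 3501 against 3803 in nondiabetic mice, uninephrectomy against sham. The part of these 3 marker lists in the values of Ptgis was not tested. With diabetes Ptgis differed by 0.16 in uninephrectomised and 0.27 in sham mice.

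Hpgd (chr8:56294552-56321046), the enzyme that inactivates prostaglandin E2, was the 1 member whose probe sets were all lower on both diabetic arrays. Of all genes tested, 18.6% had both diabetic arrays below both nondiabetic ones. Probe set 1419905_s_at read 1584.4 in diabetic uninephrectomy and 1792.6 in diabetic sham mice, against 1798.2 in nondiabetic uninephrectomy and 2344.3 in nondiabetic sham mice. The diabetic sham and nondiabetic uninephrectomy arrays were practically level, and the mean log2 difference of -0.28 ± 0.16 did not pass (limma adjusted p = 0.626). Probe set 1419906_at read 90.9 in diabetic uninephrectomy and 106.5 in diabetic sham mice, against 193.0 in nondiabetic uninephrectomy and 143.0 in nondiabetic sham mice. Its log2 differences with diabetes were -0.90 and -0.35. The suffix _s_at marks a probe set that can bind transcripts of more than 1 gene. The 6 proximal tubule markers were 50145 in diabetic uninephrectomy and 71302 in diabetic sham mice, against 73162 in nondiabetic uninephrectomy and 71311 in nondiabetic sham mice as a sum, and their part was not tested.

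**Figure D2:**
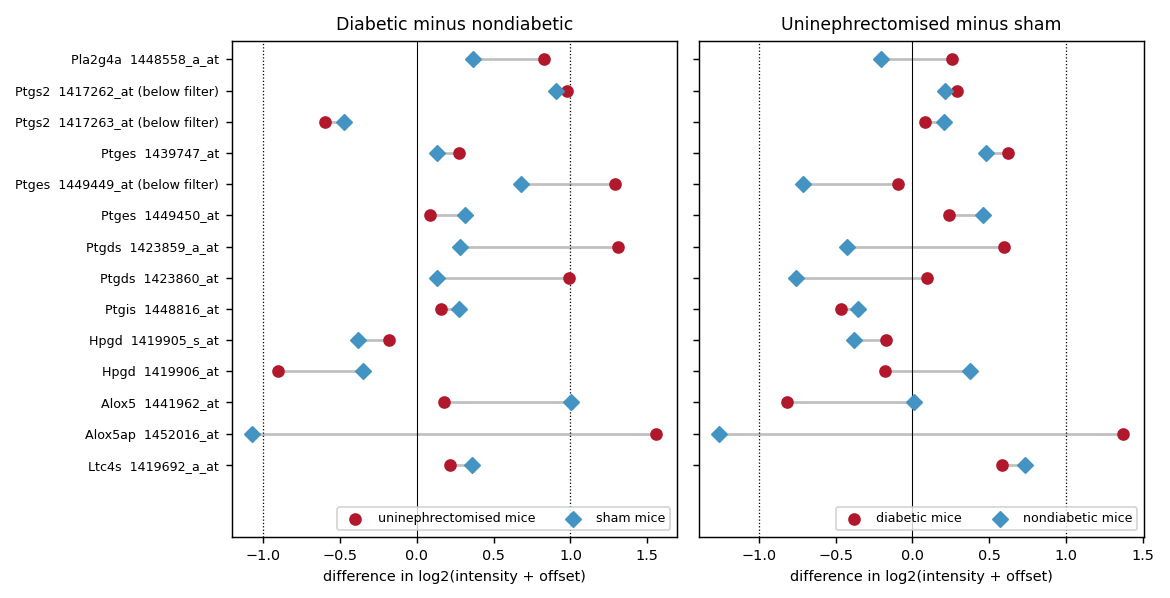
Log2 difference of each of the 14 probe sets with diabetes (left, diabetic minus nondiabetic) and with uninephrectomy (right, uninephrectomised minus sham), 1 point for each pair of arrays. Dotted lines mark a 2-fold difference, and the grey bar joins the 2 differences of a probe set. Most pairs of points lie on the same side of 0 for diabetes, with Alox5ap on opposite sides at -1.07 and 1.56.

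Of the 8 tested members, 3 had both diabetic arrays above both nondiabetic ones, against 19.1% of all genes tested: Ptgds, Pla2g4a and Alox5. Of these, Alox5 passed the limit for testing only through its high diabetic sham array. The 250 bases before the transcription starts of these 3 genes are shown so that they can be compared. They come from RefSeq on build GRCm38.p6, where 8 of the 10 genes had an entry, and are written 5′ to 3′ on the minus strand, from which all 3 are transcribed. They lie at chr2:25469750-25469999 (Ptgds), chr1:149961291-149961540 (Pla2g4a, the outer of 2 starts) and chr6:116461179-116461428 (Alox5). The windows of Pla2g4a and Alox5 begin just past the end of the gene's span. That of Ptgds lies inside its span, so the start used there is an inner one. Capitals mark matches, on either strand, to the TATA box TATAAA, the AP-1 site TGANTCA, the GC box GGGCGG or the cyclic AMP response element TGACGTCA.
Ptgds: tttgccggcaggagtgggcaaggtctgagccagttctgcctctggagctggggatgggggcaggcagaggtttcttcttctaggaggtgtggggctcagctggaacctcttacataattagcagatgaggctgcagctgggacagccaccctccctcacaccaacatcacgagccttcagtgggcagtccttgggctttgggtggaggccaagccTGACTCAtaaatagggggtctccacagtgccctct
Pla2g4a: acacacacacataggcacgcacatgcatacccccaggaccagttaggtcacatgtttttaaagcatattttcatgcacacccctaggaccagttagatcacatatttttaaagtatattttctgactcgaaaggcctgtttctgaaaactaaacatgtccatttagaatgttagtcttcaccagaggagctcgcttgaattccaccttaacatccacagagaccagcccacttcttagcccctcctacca
Alox5: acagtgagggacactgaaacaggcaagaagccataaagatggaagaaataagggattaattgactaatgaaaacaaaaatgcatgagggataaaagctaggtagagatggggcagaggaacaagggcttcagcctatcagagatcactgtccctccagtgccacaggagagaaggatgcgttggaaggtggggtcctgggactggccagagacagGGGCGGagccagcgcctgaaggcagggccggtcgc
The Ptgds window held 1 AP-1 match at positions -35 to -29, counting the base before the start as -1, and such a match was in 6.75% of 32851 promoter windows of this length. The Alox5 window held 1 GC box at -35 to -30, found in 32.7% of windows, and the Pla2g4a window shown held 0 matches. The window before the other start of Pla2g4a, not shown, held a TATA box match. The TATA box was in 12.4% and the cyclic AMP element in 1.55% of all windows. The 3 windows shown thus shared no match, and a match is a description of the sequence and not a bound site.

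The leukotriene genes had 3 different patterns over the 4 arrays. Alox5 (chr6:116410071-116461178), the 5-lipoxygenase gene, was high on 1 array. Its intensity was 116.1 in diabetic uninephrectomy and 224.9 in diabetic sham mice, against 99.9 in nondiabetic uninephrectomy and 98.9 in nondiabetic sham mice. The diabetic sham array stood above the other 3, which lay close together. Alox5 passed the limit of 7.06 only through that array: its log2 values were 7.15 in diabetic uninephrectomy and 7.97 in diabetic sham mice, against 6.98 in nondiabetic uninephrectomy and 6.97 in nondiabetic sham mice, and the other 3 arrays averaged 7.03. The log2 difference with diabetes was therefore 0.17 in uninephrectomised and 1.004 in sham mice, and the mean of 0.59 ± 0.35 did not pass (limma adjusted p = 0.703). This made Alox5 the 1 member at least 2-fold higher with diabetes in sham mice, against 0.786% of all genes. The margin was narrow, and the difference fell short of 2-fold with quantile normalisation (0.93), with median centring (0.91) and with an offset at the 40th percentile (0.80). Within diabetic mice, the uninephrectomy array was lower than the sham array, with a log2 difference of -0.82.

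Alox5ap (chr5:149265004-149288153), which encodes FLAP, was the member with the widest range of log2 values over the 4 arrays among those tested, and went opposite ways in the 2 surgery groups. Its 1 probe set read 354.0 in diabetic uninephrectomy against 102.6 in nondiabetic uninephrectomy mice, and 120.4 in diabetic sham against 282.8 in nondiabetic sham mice. With diabetes it was thus higher by 1.56 on the log2 scale in uninephrectomised mice and lower in sham mice (-1.07), and with uninephrectomy higher by 1.37 in diabetic and lower in nondiabetic mice (-1.26). Both means were near 0 (0.24 ± 0.35 for diabetes and 0.06 ± 0.35 for uninephrectomy), and neither passed (limma adjusted p = 0.969 and 0.9997). Among all genes tested, 5 of 11197 (0.0447%) were at least 2-fold lower with diabetes in sham and at least 2-fold higher in uninephrectomised mice. The difference between the 2 arms, 2.63 on the log2 scale, uses all 4 arrays and leaves no residual, so it has no test.

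Alox5ap and Ptgds were the 2 members at least 2-fold higher with diabetes in uninephrectomised mice (2.14% of all genes), and 0 were lower (1.03%). Alox5ap was also the 1 member at least 2-fold lower with diabetes in sham mice (0.447% of all genes), a difference that fell short of 2-fold with the offset at the 40th percentile. With uninephrectomy it was the 1 member at least 2-fold higher in diabetic mice (1.48% of all genes) and the 1 at least 2-fold lower in nondiabetic mice (0.518%), and 0 members were lower in diabetic or higher in nondiabetic mice (0.661% of all genes in each). At 1.5-fold in either direction, 3 members differed with diabetes in uninephrectomised mice (Alox5ap, Ptgds and Pla2g4a, 12.5% of all genes) and 2 in sham mice (Alox5 and Alox5ap, 7.47%). With uninephrectomy 3 differed at 1.5-fold in diabetic mice (Alox5ap, Alox5 and Ptgds, 9.34%) and 2 in nondiabetic mice (Alox5ap and Ltc4s, 6.64%). The 5 tested genes nearest to Alox5ap by the root mean square distance of their centred log2 values over the 4 arrays were Polr3k (0.05), Hbb-b2 (0.15), Zfp90 (0.21), Aldh18a1 (0.22) and Myef2 (0.28). Polr3k, an RNA polymerase III subunit gene, read 1495.9 in diabetic uninephrectomy against 492.8 in nondiabetic uninephrectomy mice, and 582.3 in diabetic sham against 1330.8 in nondiabetic sham mice. The beta globin gene Hbb-b2 read 190.5 against 58.7 and 79.5 against 147.0 in the same pairs.

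Other measures of the arrays split in the same pairs. The 18 hybridisation control probe sets, which read RNA added to every sample, had a geometric mean of 4278 in diabetic uninephrectomy and 5773 in diabetic sham mice, against 5713 in nondiabetic uninephrectomy and 4661 in nondiabetic sham mice. The 20th percentile of intensity was 23.3 and 29.8 in these diabetic groups, against 30.1 and 23.7 in the nondiabetic groups. The median intensity was 107.7 and 115.3 in these diabetic groups, against 119.3 and 106.8 in the nondiabetic groups. The ratio of 3' to 5' signal of the beta actin controls is a measure of RNA quality. This ratio was 3.38 in diabetic uninephrectomy and 3.72 in diabetic sham mice, against 3.49 in nondiabetic uninephrectomy and 2.78 in nondiabetic sham mice. All these measures were lower on the 2 arrays where Alox5ap was high, and their part in its values was not tested. Over all genes tested, 15% were higher and 18.2% lower on these 2 arrays than on the other 2.

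Ltc4s (chr11:50236461-50238532), the leukotriene C4 synthase gene, was higher after uninephrectomy in both diabetes states. Its intensity was 575.8 in diabetic uninephrectomy against 375.6 in diabetic sham mice, and 493.3 in nondiabetic uninephrectomy against 286.6 in nondiabetic sham mice. Each uninephrectomy array lay above each sham array, as for Ptges and for 13.6% of all genes tested. The log2 difference was 0.58 in diabetic and 0.73 in nondiabetic mice, so diabetic minus nondiabetic was -0.15. The mean of 0.66 ± 0.23 had an unadjusted p of 0.00554 in limma and did not pass after adjustment (adjusted p = 0.310). With diabetes Ltc4s was higher by 0.21 in uninephrectomised and 0.36 in sham mice (mean 0.29 ± 0.23, limma adjusted p = 0.859).

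**Figure D3:**
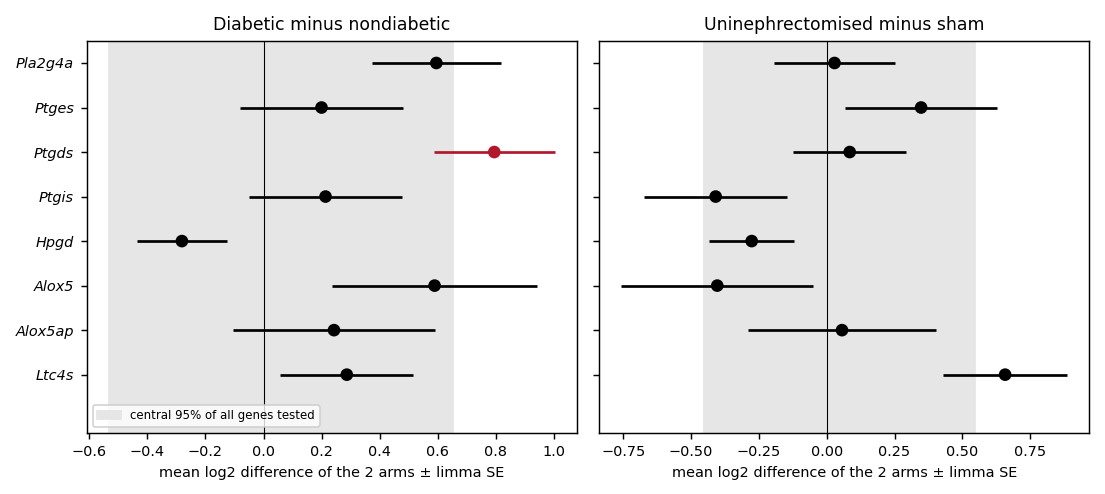
Mean log2 difference of the 8 tested members with diabetes (left) and with uninephrectomy (right); bars show the limma SE and the shaded band the central 95% of all 11197 genes (-0.53 to 0.65 for diabetes, -0.45 to 0.54 for uninephrectomy). Ptgds, in red, is the member that passed for diabetes, and Ltc4s has the highest mean for uninephrectomy, at 0.66.

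Myeloid cells are the usual site of 5-lipoxygenase, and their markers were set beside the leukotriene genes. The 8 macrophage markers summed to 12929 in diabetic uninephrectomy and 8015 in diabetic sham mice, against 6907 in nondiabetic uninephrectomy and 8384 in nondiabetic sham mice. Most of the sum was Csf1r and Lyz2, and 7 of the 8 markers were higher in diabetic than in nondiabetic uninephrectomy mice and 5 of 8 in diabetic than in nondiabetic sham mice. The sum had the same order of the 4 arrays as Alox5ap. Taken singly, 1 of the 8 markers (Cd14) had that order, 1 (Adgre1) that of Ltc4s and 0 that of Alox5. The 6 measured neutrophil markers were all below the limit for testing, with sums between 366.5 and 402.8. Of 6 mast cell markers only Kit passed it, and Cpa3, Cma1, Mcpt4, Tpsb2 and Ms4a2 read at most 93.4 on any array. The 4 platelet markers summed to 815.3 in diabetic uninephrectomy and 575.2 in diabetic sham mice, against 612.7 in nondiabetic uninephrectomy and 650.8 in nondiabetic sham mice. The part of these cells in the values of Alox5ap, Alox5 and Ltc4s was not tested. The 5 measured kidney markers, among them Umod, Slc34a1 and Aqp2, were all above the limit.

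**Figure D4:**
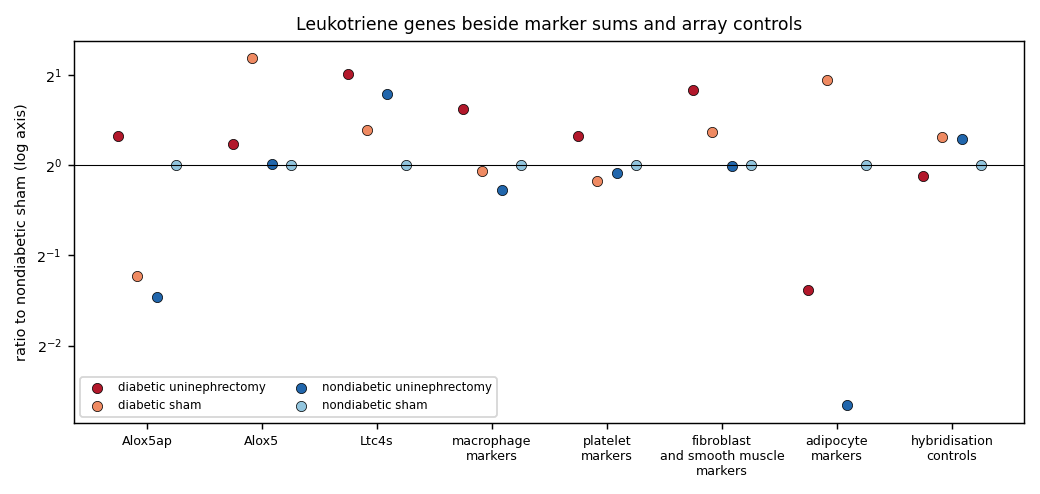
Ratio of each array to the nondiabetic sham array (log axis) for Alox5ap, Alox5 and Ltc4s, for the summed intensity of 4 marker lists and for the geometric mean of the hybridisation controls. Alox5ap reaches 1.25 in diabetic uninephrectomy mice and 0.43 and 0.36 in diabetic sham and nondiabetic uninephrectomy mice, while macrophage markers reach 1.54, 0.96 and 0.82.

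Beyond these members, 63 other genes of the pathways were listed by role, of which 55 had a probe set and 29 passed the limit for testing. With limma 0 of the 29 rose and 0 fell with either factor. Of all genes, 1.48% rose and 0.75% fell with diabetes, and 0.339% and 0.179% with uninephrectomy. At an unadjusted p below 0.05, 2 were higher and 3 lower with diabetes, against 5.43% and 4.1% of all genes. At the same threshold 0 were higher and 1 lower with uninephrectomy, against 3.19% and 2.48%. None of the 9 tested phospholipase A2 genes, 4 other prostanoid synthase genes, 3 other lipoxygenase and leukotriene enzyme genes, 4 prostanoid receptor genes and 1 leukotriene receptor gene was 2-fold different between any pair of arrays compared. Among 8 tested transport and breakdown genes 1 was, Ggt5, which encodes a gamma-glutamyl transferase that turns leukotriene C4 into D4. It read 281.1 in diabetic uninephrectomy and 363.2 in diabetic sham mice, against 197.4 in nondiabetic uninephrectomy and 122.2 in nondiabetic sham mice. Its mean log2 difference with diabetes was 0.92, from 0.46 in uninephrectomised and 1.39 in sham mice, with a limma adjusted p of 0.0907. In sham mice 0.786% of all genes were at least 2-fold higher with diabetes.

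The other 5 genes at an unadjusted p below 0.05 are named after their values were seen. Tbxas1, the thromboxane A synthase gene, read 173.0 in diabetic uninephrectomy and 154.6 in diabetic sham mice, against 356.1 in nondiabetic uninephrectomy and 249.3 in nondiabetic sham mice. Its mean log2 difference was -0.77 with diabetes (limma adjusted p = 0.207). Oxgr1, a 2-oxoglutarate receptor gene of intercalated cells that has also been described as a leukotriene E4 receptor, read 751.5 and 720.7 in these diabetic groups, against 1158.2 and 965.1 in the nondiabetic groups (mean -0.51, limma adjusted p = 0.164). The 2 exporters of the ABCC family carry leukotriene C4 (Abcc1) and prostaglandins (Abcc4) out of cells. Abcc1 had a mean difference of 0.36 and Abcc4 one of -0.34 with diabetes (limma adjusted p = 0.446 and 0.505). Abcc4 went opposite ways in the 2 surgery groups, with -0.91 in uninephrectomised and 0.23 in sham mice. For Abcc1 the differences were 0.25 and 0.46. Cbr1, a carbonyl reductase gene, had a mean difference of -0.45 with uninephrectomy (limma adjusted p = 0.350). The receptor genes tested included Ptger3, the EP3 receptor of the distal nephron, which read 3472.9 and 3855.0 in diabetic uninephrectomy and diabetic sham mice, against 3164.5 and 3745.8 in nondiabetic uninephrectomy and nondiabetic sham mice.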

How the data were processed

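Kidney RNA pooled from 4 mice in each group was labelled with biotin from 100 ng by the 3' IVT Express kit and read on 1 array a group, per the labels' protocols. The deposited values are linear intensities of 45101 probe sets, summarised and scaled before deposit: their mean without the highest and lowest 2% was 500.003 on every array. Which software and background correction were used is not given in the sources used here. Platform annotation gave 1 symbol for 34945 probe sets, which were used, several for 932 and none for 9160. Symbols were checked by Entrez number in a RefSeq table (GRCm38.p6; 34741 found, 0 changed).

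Log2(intensity + 26.4) values (26.4 is the 20th percentile) of each gene's brightest probe set were fitted with limma 3.58.1 in R 4.3.3, with diabetes and surgery as additive factors (eBayes with a trend; 1 residual and 59.5 prior degrees of freedom). The standard error therefore comes mostly from other genes of like intensity. The number of arrays limits the precision. Each group has 1 array, so there is no spread between like pools: the residual degree of freedom is the difference between the 2 arms of a factor. The fit was tested on simulated data. Between 2 single arrays only counts past 2-fold and 1.5-fold are given.

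The members, gene lists and rules were chosen with earlier results of these data known. All members are named. Other pathway genes were to be named when they passed limma or were at least 2-fold different, and genes of like pattern as the 5 nearest to the member with the widest range. The alternatives tried were arrays quantile normalised or centred on their medians, a filter at the 75th percentile or none, probe sets averaged within a gene or tested singly, an offset of 1 or of 72.5 (40th percentile), limma without a trend, and looser thresholds (adjusted p below 0.1, 1.5-fold).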

Additional observations from a re-analysis of the deposited data

Results flagged for a closer look

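In 4 members an effect had opposite signs in the 2 arms that share no array, each arm being a single difference between 2 arrays. None of these differences between arms was tested, and the share of all genes with opposite signs was not counted. The count of 4 is thus no result about the members. For Alox5ap the difference was 2.63 on the log2 scale, whether taken as diabetes in uninephrectomised minus in sham mice or as uninephrectomy in diabetic minus in nondiabetic mice. For Ptgds, uninephrectomy in diabetic minus in nondiabetic mice was 1.02, from 0.60 in diabetic and -0.43 in nondiabetic mice. For Alox5 it was -0.83, from -0.82 and 0.01, so the nondiabetic arrays were practically level and the sign there means little. For Pla2g4a it was 0.46, from 0.26 and -0.20.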

How the results depend on the processing

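The call of 1 member for diabetes, Ptgds, became 0 with median centring (limma adjusted p = 0.202), without a filter (0.403), with the mean of probe sets (0.504), with probe sets tested singly (0.223) and without a trend (0.397). It was kept with the other 4 settings that refit (adjusted p between 0.00506 and 0.0252). With uninephrectomy 0 members passed in every setting run, and the mean difference of Ptgds with uninephrectomy, 0.08, turned to -0.12 with the mean of probe sets. The 2 members at least 2-fold different with diabetes in sham mice became 1 with quantile normalisation and 1 with median centring, where Alox5 fell short of 2-fold, and 0 with an offset at the 40th percentile, where Alox5 and Alox5ap did. The filter at the 75th percentile left 3 members, of which 0 were 2-fold different with diabetes in sham, 1 with diabetes in uninephrectomised, and 0 with uninephrectomy in nondiabetic or in diabetic mice. At 1.5-fold, 3 members differed with diabetes in uninephrectomised and 2 in sham mice, and 3 with uninephrectomy in diabetic and 2 in nondiabetic mice. Of the other pathway genes, 1 (Ggt5) passed at an adjusted p below 0.1. Except for settings that test fewer genes, the cause was not tested. Over all genes, 166 rose and 84 fell with diabetes. These became 200 and 114 with quantile normalisation, 60 and 26 with median centring, 9 and 4 without a filter, 3 and 0 with the mean of probe sets, 41 and 21 with probe sets singly, and 0 and 0 without a trend. With uninephrectomy 38 rose and 20 fell, and these became 81 and 37, 5 and 4, 0 and 2, 0 and 1, 10 and 6, and 1 and 3 in the same settings. No paired analysis was possible because each group has 1 array. Leaving out an array leaves no residual.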
